A study of Homo sapiens with 4 samples.

Results

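Of the 139872 consensus ATAC-seq peaks, 3441 (2.46%) lay within 1 kb of the annotated start of a long noncoding RNA (lncRNA) transcript and more than 5 kb from every protein-coding transcript start. They are called lncRNA promoter peaks below. The rule used positions only, on genome build hg19, and no measured value. ATAC-seq measures open chromatin from the places where a transposase can insert sequencing adaptors. The cells were SEM, an established B cell precursor leukemia line with a rearranged MLL gene. All of them carried dCas9-KRAB-BSD, a Cas9 without nuclease activity fused to the KRAB repressor domain. In 1 group the cells also received sgFLT3_DE-1 (written sgFLT3-DE-1 here), a guide RNA directed at a HOXA9-bound enhancer of FLT3, and in the other group sgNT, a non-specific control guide. There were 2 libraries per guide, and the sources used here do not say whether they came from separate cultures, so p-values measure only the spread between these samples.

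A lncRNA gene is transcribed by RNA polymerase II like a coding gene, from a promoter that the transcription machinery holds free of nucleosomes. Many such promoters lie beside a coding gene and share its open chromatin, which is why the distance to coding starts matters when their own accessibility is measured. Promoters divide broadly into those within CpG islands, which are rich in G, C and the dinucleotide CG and are often used in many tissues, and CpG-poor ones, which tend to be used in fewer tissues and often resemble enhancers. KRAB-bound dCas9 closes chromatin around its own binding site, so a guide against 1 enhancer is used here to ask which other regions changed.

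The 3441 peaks were named after 2667 lncRNA genes, each peak by its nearest lncRNA start, and 2048 of these genes had a single peak. Most of the genes are barely described, since 61.8% of the peaks carried a gene known only by its Ensembl identifier. A further 647 peaks had LINC names, 298 had antisense names, 47 had names of microRNA host genes and 17 had names of small nucleolar RNA host genes. Of the 14138 lncRNA genes with a start more than 5 kb from coding starts, 2822 (19.96%) had a consensus peak within 1 kb of such a start. The lncRNA start lay inside the peak itself in 1143 of the 3441 cases (33.2%). A pseudogene start lay within 1 kb of 199 peaks (5.78%), against 1.06% of all peaks. In all, 914 peaks (26.6%) lay within the body of a coding gene. Near the edge of the rule, the 182 peaks whose lncRNA start was 900 to 1000 bp away had a median level of 3.20 CPM (counts relative to a library total scaled by the trimmed mean of M-values, TMM), and the 167 peaks just outside the limit, at up to 1100 bp, had 2.47 CPM.

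Stretches of 300 bases at peak centers give sequence examples, each on the strand of its lncRNA and with every CG dinucleotide in capitals. They are the strongest peak of all, LINC02018 (chr3:75484549-75484848, plus strand), the strongest peak that is not CpG-rich, ENSG00000235564 (chr21:25341158-25341457, minus strand), the strong peak with the highest CpG ratio, ENSG00000290535 (chr10:38691845-38692144, plus strand), the microRNA host gene among the strongest, MIR3142HG (chr5:159894782-159895081, plus strand), and the peaks with the smallest p in each direction among those whose sequence is shown, TPTEP1 (chr22:17082504-17082803, plus strand) and LINC02940 (chr21:40378612-40378911, minus strand).
LINC02018: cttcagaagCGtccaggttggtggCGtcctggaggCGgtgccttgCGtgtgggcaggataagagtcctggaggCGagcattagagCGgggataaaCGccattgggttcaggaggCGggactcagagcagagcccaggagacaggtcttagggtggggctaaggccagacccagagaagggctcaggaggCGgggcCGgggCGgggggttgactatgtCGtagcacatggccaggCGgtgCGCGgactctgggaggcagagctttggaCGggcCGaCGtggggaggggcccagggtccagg
ENSG00000235564: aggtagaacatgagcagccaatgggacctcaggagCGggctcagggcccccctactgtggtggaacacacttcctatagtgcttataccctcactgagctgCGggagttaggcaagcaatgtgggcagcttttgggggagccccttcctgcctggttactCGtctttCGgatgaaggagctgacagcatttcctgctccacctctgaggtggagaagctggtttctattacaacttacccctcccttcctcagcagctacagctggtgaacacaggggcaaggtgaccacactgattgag
ENSG00000290535: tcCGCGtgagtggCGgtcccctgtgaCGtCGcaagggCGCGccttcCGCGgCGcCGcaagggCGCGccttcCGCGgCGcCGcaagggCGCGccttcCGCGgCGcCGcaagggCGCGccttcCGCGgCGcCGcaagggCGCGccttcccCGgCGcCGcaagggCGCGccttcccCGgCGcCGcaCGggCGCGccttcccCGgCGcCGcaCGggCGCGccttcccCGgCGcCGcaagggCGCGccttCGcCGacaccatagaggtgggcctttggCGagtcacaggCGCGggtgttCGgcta
MIR3142HG: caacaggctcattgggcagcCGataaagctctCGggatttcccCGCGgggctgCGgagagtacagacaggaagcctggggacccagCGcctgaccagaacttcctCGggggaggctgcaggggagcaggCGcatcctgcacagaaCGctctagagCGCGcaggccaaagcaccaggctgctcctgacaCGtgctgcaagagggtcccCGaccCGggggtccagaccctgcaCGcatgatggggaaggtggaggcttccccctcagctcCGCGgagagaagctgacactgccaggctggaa
TPTEP1: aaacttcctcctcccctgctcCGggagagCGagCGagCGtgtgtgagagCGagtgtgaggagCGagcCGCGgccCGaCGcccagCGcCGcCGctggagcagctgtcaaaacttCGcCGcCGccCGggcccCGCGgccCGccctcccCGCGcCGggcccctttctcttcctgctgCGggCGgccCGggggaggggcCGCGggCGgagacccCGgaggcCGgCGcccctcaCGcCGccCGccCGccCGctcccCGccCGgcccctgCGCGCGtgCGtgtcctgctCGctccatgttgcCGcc
LINC02940: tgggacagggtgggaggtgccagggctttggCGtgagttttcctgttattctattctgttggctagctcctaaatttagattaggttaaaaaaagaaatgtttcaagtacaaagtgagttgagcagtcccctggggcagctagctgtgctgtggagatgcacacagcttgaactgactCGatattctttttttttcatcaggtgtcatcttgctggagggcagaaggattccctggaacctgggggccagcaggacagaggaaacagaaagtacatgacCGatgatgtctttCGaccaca
The windows of ENSG00000290535 and TPTEP1 contained their lncRNA start. Those of LINC02018, ENSG00000235564, MIR3142HG and LINC02940 did not, and the LINC02940 start lay 908 bp from the peak. The CG count ranged from 4 in the windows of ENSG00000235564 and LINC02940 to 59 in that of ENSG00000290535. The ENSG00000290535 window is built from a short repeated unit, and the word gggcgcgccttc occurs 9 times in it on the strand shown. MIR3142HG held 17 CG dinucleotides at 65.3% GC, which left it short of the CpG-rich limit used here (at least 50% GC and an observed over expected CpG ratio of at least 0.6 in the 300-base window).

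In base composition, lncRNA promoter peaks stood between coding promoters and distal peaks. Their median GC content was 52.9%, against 66.0% in the 19614 peaks within 1 kb of a coding start and 46.1% in the 108601 remaining peaks over 5 kb from one. The CpG-rich share was 23.1% (795 peaks), against 72.7% of the peaks at coding starts and 1.80% of the other distal peaks. Names went with composition, since 15 of the 17 SNHG peaks and 22 of the 47 MIR-host peaks were CpG-rich, but only 423 of the 2127 peaks with an Ensembl identifier alone (19.9%). Where the start lay inside the peak, 39.5% were CpG-rich, and where it lay outside, 14.9%. Median peak length was 202 bp, against 268 bp at coding starts and 171 bp at the other distal peaks.

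The same windows were searched on both strands for short motif matches, with overlaps between motifs left in. A match is a run of letters and not a shown binding site. The ETS motif CCGGAAG was found in 11.4% of the CpG-rich lncRNA promoter windows and 3.70% of the others, against 13.2% at coding starts, 1.48% at other distal peaks and 3.31% of all peaks. NRF1 (GCATGCGC), the motif of a factor of growth-related promoters, occurred in 4.65% of CpG-rich and 0.454% of other lncRNA promoter windows, with 3.59% at coding starts and 0.821% over all peaks. RUNX (TGTGGT), the motif of hematopoietic RUNX factors, went the other way, with 7.04% of CpG-rich and 33.5% of other lncRNA promoter windows, 12.5% at coding starts, 37.7% at other distal peaks and 33.6% of all. The TATA box (TATAAA) was in 2.39% of CpG-rich and 15.3% of other lncRNA promoter windows, against 18.0% of all peaks. For the short motif of the erythroid and stem cell GATA factors, AGATAA, the shares were 4.91% and 15.6%, against 15.6% of all. The CCAAT box (CCAAT) was in 24.4% and 31.1%, against 32.6% of all. The CTCF core, a spaced pattern of 12 letters, was in 8.37% of lncRNA promoter windows and 6.47% of all, and HOX-PBX (TGATTTAT) in 1.54% and 1.79%. The composition of a window alone changes how often a motif matches, and these shares are not corrected for it.

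**Figure D1:**
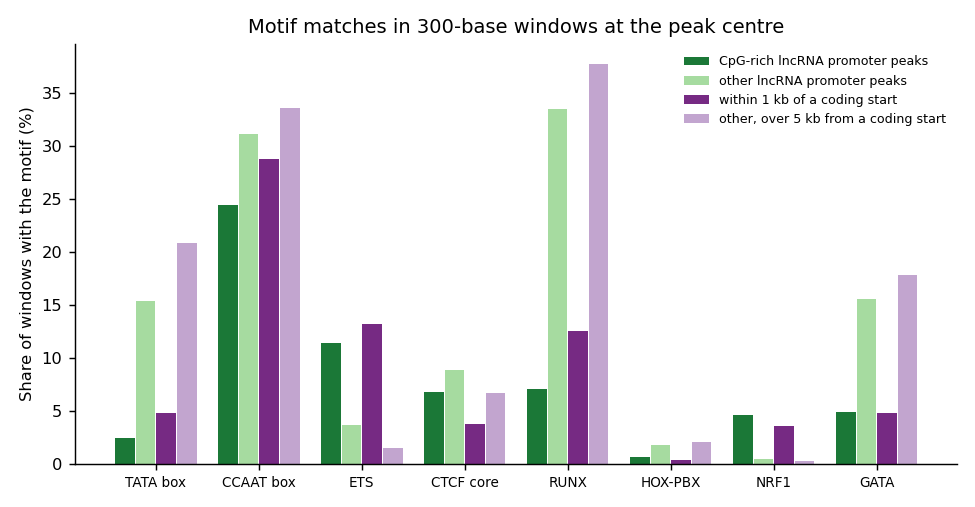
Share of 300-base windows (vertical axis, percent) with at least 1 match to each of 8 motifs on either strand, for CpG-rich and other lncRNA promoter peaks, peaks within 1 kb of a coding start and other peaks over 5 kb from one. CpG-rich lncRNA promoters had ETS in 11.4% and RUNX in 7.04% of windows, and the other lncRNA promoters had them in 3.70% and 33.5%.

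Total counts per library ranged from 2683477 to 4831164, and the median lncRNA promoter peak held 13 to 24 counts, so single peaks of median size are measured with a large counting error. At the guide site on chromosome 13 the peak stood at 60.1 and 68.1 CPM with sgFLT3-DE-1 and at 115 and 128 CPM with sgNT, a log2 fold change of -0.92 (SE 0.26) that did not pass the adjusted threshold (edgeR, adjusted p = 0.9999). Of 9 B cell precursor markers, 5 (among them PAX5 and EBF1) had a consensus peak at a start, against 2 of 6 T cell, 2 of 5 myeloid, 0 of 5 erythroid, 1 of 4 epithelial and 1 of 3 hepatocyte markers. The 4 B cell markers without one were CD79A, CD79B, RAG1 and BLNK. Summed over each list, the T cell markers had 13.5 to 18.5 CPM with sgFLT3-DE-1 and 11.9 to 14.6 CPM with sgNT, the myeloid ones 4.21 to 8.26 and 5.19 to 5.49 CPM, the epithelial ones 0.843 to 1.21 and 0.306 to 0.366 CPM, and the hepatocyte ones 5.04 to 7.02 and 6.22 to 8.25 CPM. The B cell markers' summed level was 73.0 and 100.5 CPM with sgFLT3-DE-1 at its lowest and highest, and 82.5 and 102 CPM with sgNT. The part of these differences in the results below was not tested.

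lncRNA promoters were less open than coding promoters and more open than other distal peaks in each of the 4 libraries. Each level is an average over many cells, so a promoter open in fewer cells and one less open in every cell cannot be told apart. The median peak had 4.21 and 4.83 CPM with sgFLT3-DE-1 and 4.28 and 4.76 CPM with sgNT. At coding starts the medians were 8.15 and 9.47 CPM with sgFLT3-DE-1 and 9.17 and 9.88 CPM with sgNT. At the other distal peaks they ran from 2.56 to 2.82 CPM. The 8216 peaks 1 to 5 kb from a coding start, with a median GC of 51.2% and 10.9% CpG-rich, had 3.37 and 4.43 CPM with sgFLT3-DE-1 and 3.67 and 4.39 CPM with sgNT. Per kb of peak they had 20.3, 26.4, 21.4 and 25.7 CPM in the same order, above the lncRNA promoters in 3 of 4 libraries (20.8, 23.8, 21.4 and 23.6 CPM). Within libraries, the median of log2(CPM + 0.5) was 0.94 ± 0.07 (SD, n = 4) lower at lncRNA promoters than at coding starts, and lower in 4 of 4 libraries (exact sign-flip test over libraries, two-sided p = 0.125, the smallest that 4 libraries allow). Part of the gap went with peak length, and per kb of peak the difference was -0.64 ± 0.07 (SD, n = 4), at 20.8 to 23.8 CPM per kb for lncRNA promoters and 30.9 to 38.0 CPM per kb for coding starts. Among CpG-rich peaks of both classes the difference was -0.33 ± 0.06 (SD, n = 4), and among the others -0.32 ± 0.06 (SD, n = 4). In each library the CpG-rich lncRNA promoters were the higher ones, with medians of 8.15, 10.1, 9.47 and 10.2 CPM (sgFLT3-DE-1 1 and 2, then sgNT 1 and 2) against 3.37, 3.83, 3.67 and 4.03 CPM in the rest. A start inside the peak went with a similar gap, 7.86, 9.27, 8.55 and 9.15 CPM against 3.09, 3.63, 3.36 and 3.29 CPM. Both gaps were in part a matter of length. Median length was 301 against 187 bp for the CpG split and 280 against 176 bp for the start split. Per kb of peak, the median of the 4-library mean was 32.8 against 19.9 CPM and 30.5 against 19.1 CPM.

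**Figure D2:**
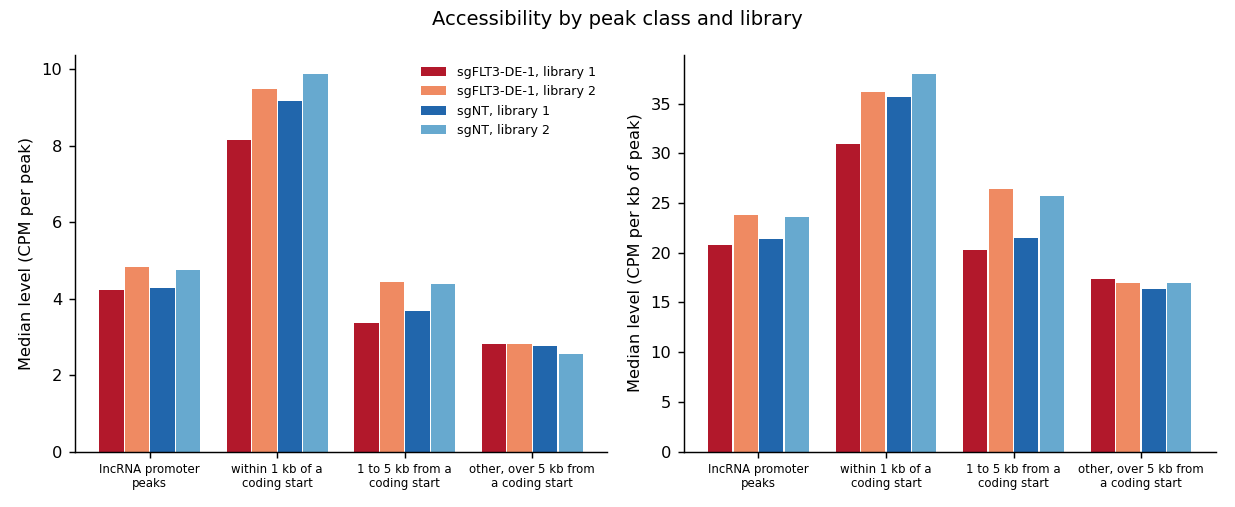
Median level in each of the 4 libraries for 4 classes of peak, in CPM per peak (left) and CPM per kb of peak (right). lncRNA promoter peaks stood at 4.21 to 4.83 CPM, below the peaks at coding starts (8.15 to 9.88 CPM) and above the other distal peaks (2.56 to 2.82 CPM).

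The strongest lncRNA promoter was that of LINC02018 on chromosome 3 (75484184 to 75485213), 228 kb from the nearest coding start. Its 1030 bp peak had 317 and 201 CPM with sgFLT3-DE-1 and 300.3 and 218 CPM with sgNT. The groups overlapped, and the libraries numbered 1 were the high ones under both guides. The start of a pseudogene, FAM86DP, lay within 1 kb, and stretches of 32 bases in this peak recurred in 16 other consensus peaks, at most 12.7% of them in a single one, so some of its reads could belong to near-identical copies. ENSG00000235564 on chromosome 21 (25341018 to 25341598) came next, with 180.0 and 123 CPM with sgFLT3-DE-1 and 150.0 and 115 CPM with sgNT. Its CpG ratio was 0.17, so the second strongest promoter was a CpG-poor one, and it lay 1638 kb from the nearest coding start.

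The other 10 of the 12 strongest genes had means of 100.4 to 128 CPM. ENSG00000289367 on chromosome 1, among olfactory receptor genes and within 1 kb of the pseudogene CLK3P2, had 162 and 104 CPM with sgFLT3-DE-1 and 132 and 114 CPM with sgNT. ENSG00000287168 on chromosome 9 had 141 and 115 CPM with sgFLT3-DE-1 and 129.8 and 117 CPM with sgNT. LINC01618 and ENSG00000286161 lay close together on chromosome 4, at 53578328 and 53588384, on opposite strands, and the first had 129 and 95.7 CPM with sgFLT3-DE-1 and 122 and 92.2 CPM with sgNT. The group was completed by ENSG00000289462, ENSG00000290535, ENSG00000286373, ENSG00000289409, ENSG00000287475 and MIR3142HG. MIR3142HG, the host of miR-146a, a microRNA that dampens inflammatory signaling, had 104 and 92.1 CPM with sgFLT3-DE-1 and 107 and 97.7 CPM with sgNT.

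All 12 starts lay inside their peaks, 9 of the 12 windows were CpG-rich, and peak length ran from 412 to 1223 bp. Length helped to place them, since 5 of the 12 were also among the 12 strongest per kb, where LINC01618 (266 CPM per kb) ranked above LINC02018 (252 CPM per kb), and 2 short peaks, FAM27C and ENSG00000291149, ranked above both. Among the 100 strongest genes, 64 peaks were CpG-rich, 84 had the start inside and 15 lay within 1 kb of a pseudogene start. These 100 peaks held 21.1% of all counts in lncRNA promoter peaks. At 78 peaks with a mean of 50 CPM or more, the sgFLT3-DE-1 library 1 exceeded library 2 in 71, and the sgNT library 1 exceeded library 2 in 69, with median ratios of 1.29 and 1.2017. The libraries numbered 1 thus gave higher values at strong peaks than the libraries numbered 2 with either guide.

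**Figure D3:**
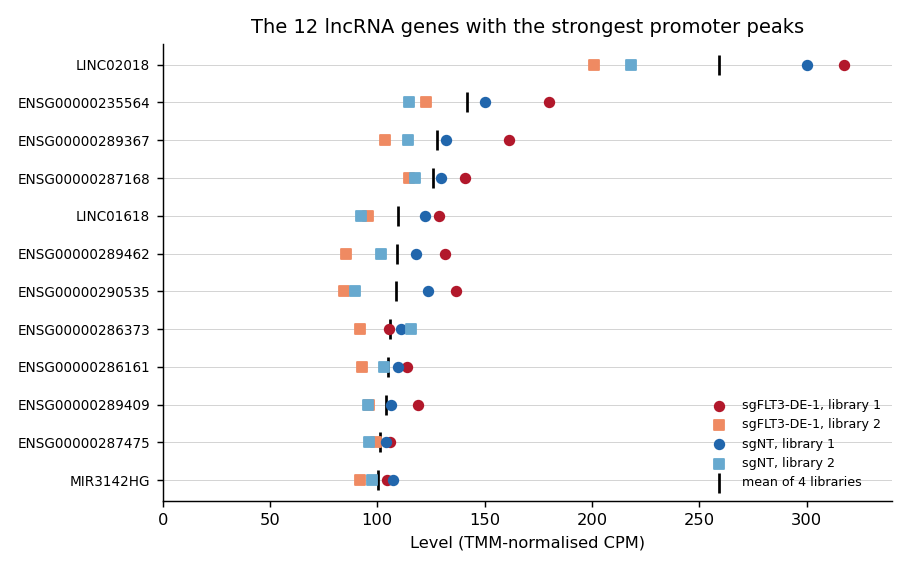
Level (horizontal axis, TMM-normalised CPM) of the strongest peak of the 12 lncRNA genes with the highest mean, 1 point per library and a bar for the mean of the 4 libraries. LINC02018 stood apart at 201 to 317 CPM, and libraries numbered 1 (circles) lay above libraries numbered 2 (squares) of the same guide in 12 of 12 genes with sgFLT3-DE-1 and in 11 of 12 with sgNT.

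No lncRNA promoter peak changed past the threshold between the guides in the fit with the guide as its only term. Of the 3441, 2365 had enough counts to be tested, and 0 of these passed FDR 0.05 in the edgeR quasi-likelihood test with Benjamini-Hochberg adjustment over all 82558 tested peaks, where 2 peaks (0.00242%) passed. DESeq2 and limma-voom also called 0. The 1076 untested peaks had a median of 1.57 CPM. At an unadjusted p under 0.05, 13 lncRNA promoter peaks were higher with sgFLT3-DE-1 (0.550%, against 0.792% of all tested peaks) and 34 were lower (1.44%, against 1.12%). The balance of directions depended on single libraries, with 38 higher and 30 lower without the sgFLT3-DE-1 library 1, 37 and 130 without the sgFLT3-DE-1 library 2, 11 and 22 without the sgNT library 1, and 15 and 11 without the sgNT library 2. The median log2 fold change was -0.013, against 0.0084 over all tested peaks. The promoters held 3.13% and 3.23% of all peak counts in the sgFLT3-DE-1 libraries and 3.21% and 3.26% in the sgNT libraries, a difference of -0.056 percentage points with overlapping groups (exact permutation test over 4 libraries, two-sided p = 0.667). Under 3 narrower rules for the members the groups did not overlap and both sgFLT3-DE-1 libraries were lower. With the start within 500 bp the shares were 2.54% and 2.59% against 2.62% and 2.63%, with the start inside the peak 1.733% and 1.731% against 1.81% and 1.77%, and over 10 kb from coding starts 2.880% and 2.936% against 2.938% and 2.969%. Each of these gave an exact permutation p of 0.333, the smallest that 2 libraries against 2 allow, so the test cannot pass 0.05 under any rule.

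Over the 12 strongest genes the log2 fold changes ran from -0.20 to 0.19 with standard errors of 0.26 to 0.31, and over the 78 peaks of at least 50 CPM from -0.35 to 0.29. The groups did not overlap at 14 of these 78 peaks, 12 lower (15.4%, against 14.6% of all 2093 tested peaks of that level) and 2 higher (2.56%, against 1.62%) with sgFLT3-DE-1. Estimates beyond 1 in size were found at 12 peaks upward and 21 downward, and the median level of these was 3.32 CPM, below the median of 7.45 CPM over all tested lncRNA promoter peaks.

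The peaks with the smallest p in each direction were mostly weak ones, and none passed the adjusted threshold in the fit with the guide as its only term. LINC02940 on chromosome 21 (40378656 to 40378867) had 1.40 and 2.42 CPM with sgFLT3-DE-1 and 6.72 and 6.59 CPM with sgNT, from 5 to 22 counts per library, with a log2 fold change of -1.74 (SE 0.49). ENSG00000289452 on chromosome 1 had 5.62 and 6.24 CPM against 11.3 and 14.6 CPM. ENSG00000288632 on chromosome 16, near the pseudogene SLC7A5P1, had 3.37 and 8.26 CPM against 12.8 and 13.2 CPM. In both, the sgFLT3-DE-1 library 1 was the lowest. LINC00968 had 2.25 and 2.42 CPM against 5.19 and 7.32 CPM, and LINC00324 had 4.77 and 10.7 CPM against 14.97 and 16.5 CPM. Stretches of 32 bases in the peaks of ENSG00000288632 and LINC00324 recurred in other consensus peaks, at most 20.8% and 10.3% of them in a single one. Some of their reads could therefore belong to near-identical copies.

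In the upward direction TPTEP1, a gene on chromosome 22 named as a TPTE pseudogene and annotated as a lncRNA, had 16.0 and 15.5 CPM with sgFLT3-DE-1 and 9.78 and 7.32 CPM with sgNT, a log2 fold change of 0.87 (SE 0.32). Its peak (17082491 to 17082816) was the most GC-rich of the 10, at 77.6%, and 10.2% of its stretches of 32 bases recurred in a peak on chromosome 7. ENSG00000258039, inside the coding gene ANKS1B, had 29.5 and 23.6 CPM against 17.4 and 16.5 CPM. The remaining 3, ENSG00000253165, ENSG00000205414 and ENSG00000235575, had 0 to 10 counts in each sgNT library and 12 to 24 in each sgFLT3-DE-1 library. Such counts cannot place the size of a change, and the one library at 0 is sgNT 2, the shallowest.

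Guide change went with GC content. The GC quartiles of the tested peaks met at 47.2%, 54.3% and 63.3%, and the median log2 fold change from the lowest to the highest was 0.039, 0.030, -0.033 and -0.10. Over the tested peaks of the top quartile the median levels were 8.43 and 10.07 CPM with sgFLT3-DE-1 and 10.08 and 10.6 CPM with sgNT, and the sgFLT3-DE-1 library 1 was the lowest. In the bottom quartile they were 6.18 and 6.24 CPM with sgFLT3-DE-1 and 6.11 and 6.22 CPM with sgNT. When single libraries were left out, the top quartile's median stayed below 0, from -0.25 without the sgFLT3-DE-1 library 2 to -0.044 without library 1. The bottom quartile's ran from -0.0013 to 0.13. Without the sgFLT3-DE-1 library 1 the 4 medians were -0.0013, 0.072, 0.044 and -0.044. Without the sgNT library 2 they were 0.0046, 0.078, 0.014 and -0.088. In neither case did they fall steadily with GC content. They did so without the sgFLT3-DE-1 library 2 and without the sgNT library 1. The same GC ranges gave 0.069, 0.00055, -0.066 and -0.14 at coding starts and 0.059, 0.049, 0.029 and -0.060 at the other distal peaks, so the trend was shared with other classes. With each library corrected for its own loess trend on peak GC, the lncRNA promoter medians were -0.0015, 0.020, 0.019 and 0.043. The correction removes a GC trend over all tested peaks by design, so flatter medians follow from it and are no separate result. Of the 34 peaks lower at an unadjusted p under 0.05, 21 were CpG-rich and the median GC was 68.2%, whereas of the 13 higher ones 2 were CpG-rich and the median was 45.9%. After the GC correction 20 were higher and 23 lower.

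**Figure D4:**
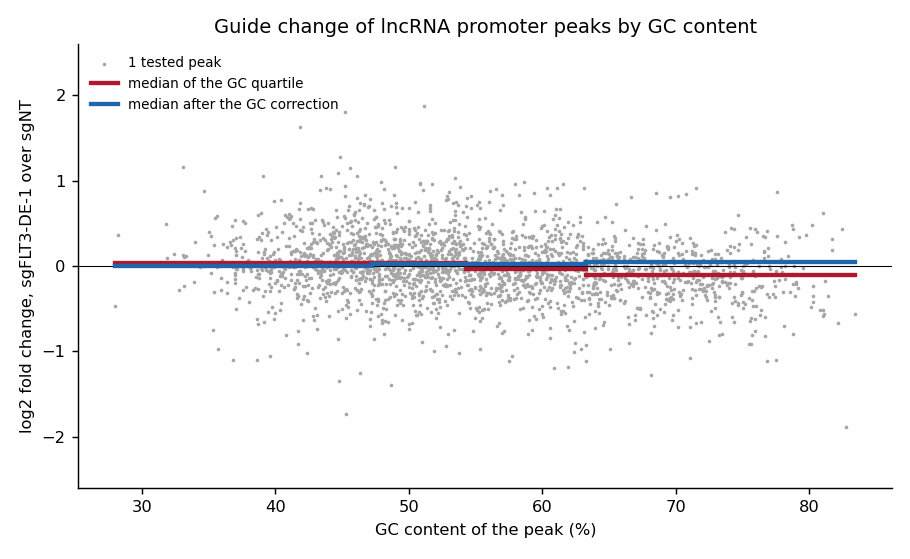
log2 fold change of sgFLT3-DE-1 over sgNT (vertical axis) against the GC content of the peak (horizontal axis, percent) for the 2365 tested lncRNA promoter peaks, 1 point per peak. Red bars mark the median of each GC quartile, which falls from 0.039 to -0.10. Blue bars mark the median after the GC correction, which removes such a trend by design, from -0.0015 to 0.043.

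Among 4 groups of better known lncRNA genes, none of the peaks passed FDR 0.05 or an unadjusted p of 0.05. microRNA host genes are transcribed as long precursors from which microRNAs are cut. Of 30 listed, 15 had 28 peaks, 26 of them tested, with 23 estimates lower and 3 higher and a median log2 fold change of -0.16, against 0.0084 and 48.9% lower over all tested peaks. Their median GC was 61.4%, and with the GC correction 19 were lower and the median was -0.10. Leaving out single libraries gave 16 to 20 of 26 lower. MIR181A1HG, host of a microRNA of lymphocyte development, had 73.9 and 54.8 CPM with sgFLT3-DE-1 and 70.3 and 61.5 CPM with sgNT, from a window without a single CG (CpG ratio 0). MIR17HG, host of an oncogenic microRNA cluster, had 66.0 and 40.1 CPM against 69.4 and 41.7 CPM in its strongest peak. DLEU2, host of microRNAs often deleted in chronic lymphocytic leukemia, had 26.4 and 34.6 CPM against 40.9 and 36.2 CPM. Its log2 fold change was -0.33 (SE 0.26), or -0.15 without the sgFLT3-DE-1 library 1 and -0.55 without library 2. MIRLET7A1HG and MIR99AHG had estimates of -0.14 (SE 0.25) and -0.070 (SE 0.26).

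Host genes of small nucleolar RNAs, which guide the chemical modification of ribosomal RNA, had the highest CpG-rich share of the 4 groups, with 16 of 20 peaks. Of the 18 tested, 10 were lower and 8 higher, with a median of -0.055 that became 0.063 with the GC correction. SNHG5 was the strongest, with 105 and 80.4 CPM with sgFLT3-DE-1 and 105 and 80.5 CPM with sgNT. SNHG8 followed with 75.8 and 41.5 CPM against 66.3 and 46.5 CPM, and EPB41L4A-AS1, which hosts SNORA13, with 54.5 and 37.9 CPM against 50.1 and 37.3 CPM. SNHG29 had 17.7 and 22.8 CPM against 24.4 and 33.7 CPM, with a log2 fold change of -0.51 (SE 0.27), or -0.26 without the sgNT library 2. SNHG6 had 17.7 and 16.5 CPM against 23.8 and 22.7 CPM, and SNHG25 had 14.0 and 17.9 CPM against 11.3 and 19.4 CPM.

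Among long-studied nuclear and regulatory lncRNAs, 12 of 35 listed genes had 21 peaks, and the 14 tested were 7 higher and 7 lower with a median of 0.0040. FIRRE, an X-linked RNA that helps to organize the nucleus, had 66.3 and 53.8 CPM with sgFLT3-DE-1 and 67.5 and 57.8 CPM with sgNT. JPX and FTX, noncoding neighbors in the X-inactivation center, had 32.2 to 44.6 CPM and 23.1 to 27.2 CPM over the 4 libraries. TERC, the RNA template of telomerase, had 16.8 to 22.0 CPM at a peak 546 bp from its start. The PVT1 peak had 14.9 to 19.4 CPM. It lay 137 bp from an annotated start of that gene and 312 kb from the nearest coding start, that of MYC. MALAT1, an abundant RNA of nuclear speckles, had 12.1 and 16.9 CPM with sgFLT3-DE-1 and 18.0 and 26.0 CPM with sgNT. The log2 fold change was -0.58 (SE 0.29), or -0.43 with the GC correction of its peak of 69.8% GC. It was -0.30 without the sgNT library 2 and -0.36 without the sgFLT3-DE-1 library 1.

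lncRNAs described in blood cells and leukemia were the least CpG-rich of the 4 groups, with 5 of 34 peaks and a median GC of 49.0%. Of 45 listed, 16 had a peak, and the 29 tested peaks were 13 higher and 16 lower with a median of -0.028. The direction of this median depended on the library left out, from -0.12 without the sgFLT3-DE-1 library 1 to 0.12 without the sgNT library 1. LUCAT1, a stress-induced RNA, had 64.0 and 49.95 CPM with sgFLT3-DE-1 and 67.8 and 52.3 CPM with sgNT from a CpG-poor promoter. MEF2C-AS1 and MEF2C-AS2, transcribed near the gene of the lymphoid and myeloid regulator MEF2C, had 48.7 to 54.2 CPM and 40.1 to 60.1 CPM over the 4 libraries. LINC01215, LINC00877 and CHROMR had means of 44.1, 42.6 and 39.9 CPM, with log2 fold changes of 0.088, -0.15 and -0.0054 and standard errors of 0.25 each.

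**Figure D5:**
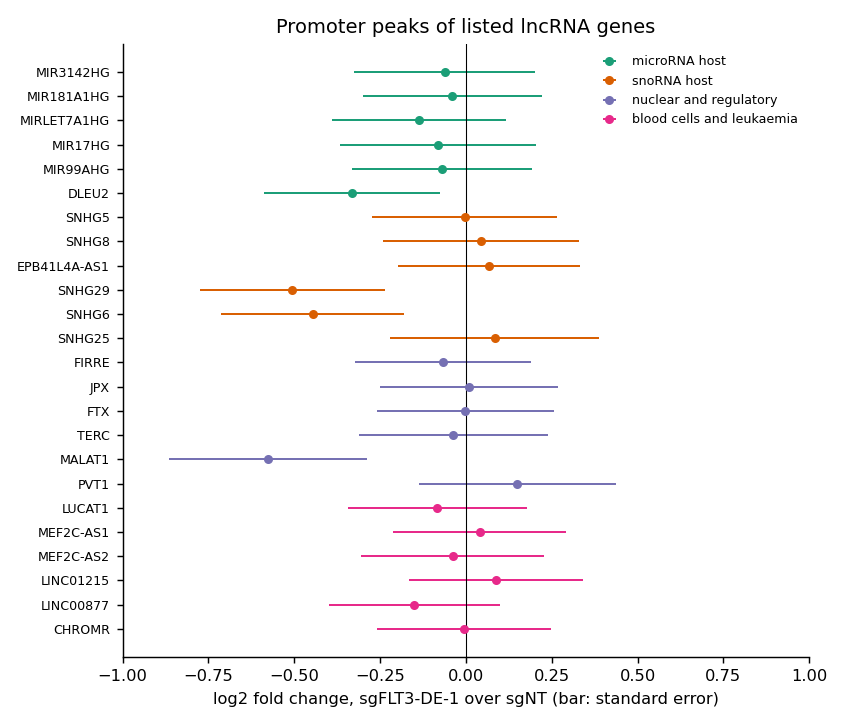
log2 fold change of sgFLT3-DE-1 over sgNT (horizontal axis) with its standard error (bar) at the strongest peak of up to 6 genes in each of 4 groups of lncRNA genes. MALAT1 (-0.58), SNHG29 (-0.51), SNHG6 (-0.45) and DLEU2 (-0.33) lie farthest from 0, and none of the peaks shown passed an unadjusted p of 0.05.

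Closest to the guide site on chromosome 13 were 2 peaks of LINC00543, the only lncRNA promoter peaks within 1 Mb, at 315 and 316 kb. The stronger (28527795 to 28528292) had 43.8 and 49.6 CPM with sgFLT3-DE-1 and 36.7 and 48.7 CPM with sgNT, with overlapping groups and a log2 fold change of 0.14 (SE 0.26). The weaker had 2.01 to 4.89 CPM over the 4 libraries and an estimate of -0.40 (SE 0.51), which was -1.08 without the sgFLT3-DE-1 library 1, 0.14 without library 2 and -0.16 without the sgNT library 1. Over the 69 tested lncRNA promoter peaks of chromosome 13 the median was 0.033.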

How the data were processed

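ATAC-seq libraries of SEM cells were grouped by the guide in their titles, 2 with sgFLT3-DE-1 and 2 with sgNT. The authors deposited raw counts per consensus peak for the 4 libraries in a single table, on hg19, and all 139872 regions matched their list of peaks. The sources differ on how the counts were made. According to the extract protocol, reads were trimmed with cutadapt 1.18 and mapped with Bowtie2 2.2.9. The submitters' processing notes instead name BWA as the aligner, with Trim Galore 0.4.4 and cutadapt for trimming, MACS2 2.1.1.20160309 for peaks, and SAMtools 1.2 and bedtools 2.24.0. Only uniquely mapped reads were kept according to the supplementary notes, which lowers counts in repeated sequence, and peaks were called in these same libraries. The sources used here do not state which fragments were counted.

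Counts were tested with edgeR 4.0.16 in R 4.3.3 (filterByExpr with a minimum count of 10, TMM factors, quasi-likelihood test with the guide as the only term) over all peaks, and Benjamini-Hochberg adjustment ran over the 82558 tested, at a threshold of FDR 0.05. A standard error is the size of the log2 estimate divided by the root of its F statistic. The procedure was tested on simulated counts. Starts came from basic transcripts of GENCODE 44 lifted to GRCh37, and distances run from the peak's nearest edge. Sequences and GC content were read from GRCh37. The named peaks were the 12 genes of highest mean CPM, the 5 smallest p in each direction, up to 6 genes per list and up to 3 peaks nearest the guide site within 1 Mb. The members and gene lists were chosen with earlier results of these data known. Of the cell type markers, 1 is not reported here. Alternatives were other scalings, filters, tools (DESeq2 1.42.0, limma 3.58.1), the replicate number, GC content, single libraries left out and other rules of membership. Libraries of a group differed by more than counting error (chi-square over its degrees of freedom 2.89 and 1.64). Totals of 2683477 to 4831164 counts limit the precision of weak peaks.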

Additional observations from a re-analysis of the deposited data

How the results depend on the processing

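In the reported edgeR fit 0 lncRNA promoter peaks passed FDR 0.05, with 47 at an unadjusted p under 0.05, and 0 passed under every scaling, filter, tool, membership rule and left-out library tried. The exceptions were the fits with a replicate block, in which the shared library number is a covariate. The replicate block called 6 (all lower, against 93 of all peaks, 0.113%) and the block with the GC correction 1 (TPTEP1, higher). The 6 were LINC02940, ENSG00000289452, ENSG00000288632, LINC00324, PCGF3-AS1 and ENSG00000286895. Across the tested peaks, the deviations of the 2 libraries numbered 1 from their group means had a correlation of 0.397. The labels do not say what the number marks. With only 2 libraries per guide, it was not treated as a pairing. The count at an unadjusted p under 0.05 was 202 with the replicate block, 180 with the block and GC correction, 126 with no filter on low counts, 8 with a mean count of at least 50, 19 with the start inside the peak and 7 with DESeq2. Leaving out single libraries gave 26 (without the sgNT library 2) to 167 (without the sgFLT3-DE-1 library 2, 130 of them lower). The cause was not tested, apart from the smaller numbers of peaks under the stricter filter and rule. Without the peaks near pseudogene starts, an alternative chosen after seeing the data, it was 41. The median log2 fold change stayed within the spread of the library medians, at -0.087 to 0.020 over all alternatives. Lower accessibility than at coding starts held in each setting, at -0.64 per kb of peak and -0.56 over tested peaks, against -0.94. Leaving out single libraries, also chosen after seeing the data, moved it to between -0.97 and -0.92, and the difference in count share to between -0.11 and -0.0060 percentage points. Of the 50 peaks named in any part of the text, 17 had no change of sign under any alternative that could be fitted, and 97 of 689 values changed sign. The 17 include the 10 named for a small p, a choice that favors estimates large against their standard errors. The median lncRNA promoter peak had 13 to 24 counts, so small changes at single peaks were not detectable at this depth. The guide-site peak, at 214 to 378 counts and a log2 fold change of -0.92, did not pass FDR 0.05 in the reported fit. A change of that size at a stronger peak could therefore also go uncalled.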

Other observations

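Of the lncRNA promoter peaks, 3 (0.0872%) overlapped a HOXA9-bound region of the study's ChIP-seq list, used as positions only. The share was 0.0357% at coding starts, 0.170% at 1 to 5 kb from one and 0.1897% at the other distal peaks. The 3 peaks were named after this overlap was seen. LINC02938 on chromosome 13 had 21.9 and 24.8 CPM with sgFLT3-DE-1 and 18.0 and 18.7 CPM with sgNT, with a log2 fold change of 0.35 (SE 0.27). ENSG00000260479, within the coding gene WWOX, had 27.2 and 23.2 CPM against 22.9 and 24.2 CPM. ENSG00000290070, within EPS15L1, had 3.65 and 7.45 CPM against 6.72 and 7.69 CPM. None of the 3 passed FDR 0.05.

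Per kb of peak, the 12 strongest lncRNA genes included short GC-rich peaks and longer GC-poor peaks that the ranking by peak left out. FAM27C on chromosome 9, a peak of 142 bp at 62.0% GC, led at 283 CPM per kb, followed by ENSG00000291149 on chromosome 7, a peak of 125 bp at 71.2% GC, at 278 CPM per kb. ENSG00000236069 on chromosome 1, a peak of 415 bp, had 181 CPM per kb at 38.6% GC, and MIR181A1HG, a peak of 365 bp, had 178 CPM per kb at 43.0% GC.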
